A study of Mus musculus with 39 samples.

Results

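The Myc family and the D-type cyclins are 6 genes, Myc, Mycn, Mycl, Ccnd1, Ccnd2 and Ccnd3, out of 18194 named genes measured on 39 Affymetrix mouse arrays. They were chosen by name from the platform annotation, which lists 20 probe sets for them. Each gene is given by its probe set with the highest mean over the 39 arrays, and probe sets marked _x_at, which can bind related transcripts, were passed over. All 6 had such a probe set and entered every test, so no member was lost to a filter on low values. Values are log2 units after RMA, a method that corrects background and brings all arrays to a common distribution. A difference of 1 unit is therefore a doubling of signal.

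The samples are mouse tissues labelled by which of 4 elements they carry (SB, Tg, K5Cre, Bcat). Sleeping Beauty, a mobile DNA element used to find cancer genes, is named in the title of the series. The labels do not spell out the elements, and they give no age, sex or batch. Quadruple breast carried SB/Tg/K5Cre/Bcat and was measured on 19 arrays of 15 animals. Triple K5Cre breast carried SB/Tg/K5Cre, with 8 arrays of as many animals. Triple Bcat breast carried SB/Tg/Bcat, with 3 arrays of 2 animals. Masses of Bcat +/- animals gave 2 arrays of 2 animals, and ventral tumours gave 3 arrays of 1 Bcat +/- animal, so these 3 arrays carry no spread between animals. The titles of the masses and ventral tumours, and no others, carry the letters C57. Normal mammary gland gave 4 arrays of 4 animals: a triple Bcat, a quadruple and 2 triple K5Cre animals, which also gave breast arrays. No gland came from an animal free of these elements. Animals were read from the shared identifiers in the sample titles.

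Myc, Mycn and Mycl are transcription factors that pair with Max and bind E-box sequences at genes of ribosome production, nucleotide synthesis and cell growth. The D-type cyclins bind Cdk4 and Cdk6, and the complexes phosphorylate the Rb protein, which releases E2F factors and lets cells enter S phase. In mammary epithelium Ccnd1 is required for the full outgrowth of alveoli in mice, and Myc and Ccnd1 are classical genes in studies of beta-catenin signalling and of mammary tumours. Myc and the D-type cyclins are short-lived proteins whose level also depends on their turnover, which arrays do not measure.

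The arrays differed in tissue makeup, and this runs beside every comparison with normal gland. The mean of 13 adipocyte markers lay between 11.4 and 11.82 in the 4 glands, and the mean of 15 skeletal muscle markers between 10.33 and 12.03. Among quadruple arrays these means ran over 5.37 to 11.64 and 4.16 to 10.9, and among triple K5Cre arrays over 4.56 to 8.42 and 4.11 to 11.38. Quadruple arrays 2 and 9 had adipocyte means of 11.64 and 10.79. Quadruple arrays 5 and 9 and triple K5Cre array 7 had muscle means of 10.9, 10.7 and 11.38. Epcam, an adhesion protein of epithelial cells, lay at 8.13 to 12.88 in quadruple arrays and 11.7 to 12.4 in glands. Krt5, the keratin of basal epithelium, lay at 9.44 to 12.73 in quadruple arrays, 5.74 to 12.35 in triple K5Cre arrays and 9.12 to 10.83 in glands. In bulk tissue, fewer cells of a type and less RNA per cell cannot be told apart. Xist was over 3 units under the median on 3 arrays (quadruple 5, and triple K5Cre 2 and normal gland 3, both of animal T627). Arrays of the same animal correlated at 0.9959 over all probe sets for animal Q190 and at 0.9932 for Q2154, but at 0.9279 to 0.9302 among the 3 arrays of Q648, which is close to arrays of different tissues of animal T627 (0.9314).

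Across the 6 groups, Mycn alone among the members differed past the threshold. A limma fit with the animal as a random block and a moderated F test over the groups gave F = 6.15 and an adjusted p of 0.00682 for Mycn (Benjamini-Hochberg over 18194 genes). By this test 12.9% of all genes were called. Ccnd1 (F = 2.58, adjusted p = 0.165), Myc (F = 2.19, 0.238), Ccnd3 (F = 1.22, 0.556), Mycl (F = 0.36, 0.948) and Ccnd2 (F = 0.27, 0.973) were not. The call for Mycn belongs to 1 of its probe sets. On the other 2 the same test gave adjusted p = 0.497 and 0.579.

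**Figure D1:**
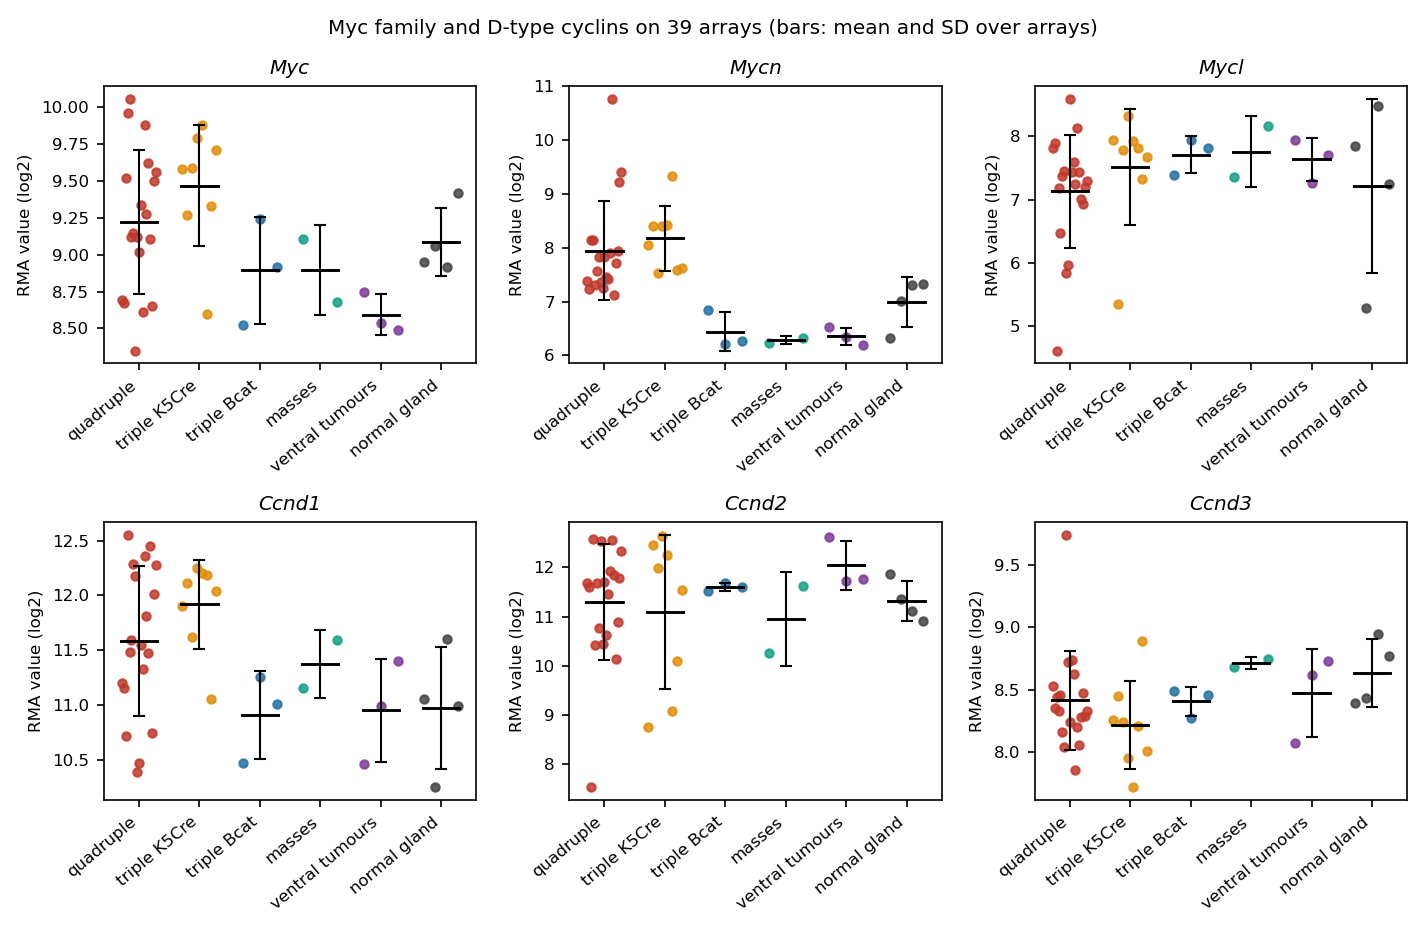
RMA values (log2) of the 6 members, 1 point per array, in the 6 label groups; horizontal bars are means and vertical bars SDs over arrays. Mycn, on its brightest probe set, lies at 7.12 or higher in all quadruple and triple K5Cre arrays. It lies at 6.85 or lower in the triple Bcat, masses and ventral tumour arrays. For the other members the range of the quadruple arrays overlaps that of every other group.

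Mycn, the family member best known from neuroblastoma and from embryonic progenitor cells, was represented by the brightest of its 3 probe sets. The others are called the second and the third, in order of their mean over the 39 arrays. On the brightest, the lowest, median and highest values were 7.12, 7.72 and 10.77 in quadruple breast and 7.53, 8.22 and 9.33 in triple K5Cre breast. Triple Bcat breast had 6.85, 6.21 and 6.27, the masses had 6.23 and 6.33, and the ventral tumours had 6.52, 6.34 and 6.2. The glands had 6.33, 7.01, 7.3 and 7.33, and the gland at 6.33 was the one from a triple Bcat animal. The lowest of the 27 quadruple and triple K5Cre breast arrays thus lay above the highest of the 8 arrays of triple Bcat breast, masses and ventral tumours.

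The sequence upstream of Mycn is shown because Mycn, on its brightest probe set alone, is the member whose values separate the groups. Its window also holds motifs of both pathways described here. The RefSeq promoter table of build GRCm38.p6 gives a window around the gene's start, most of it upstream, at chr12:12941787-12942086 on the minus strand. Capitals mark matches to the E2F motif TTTGGCGC and to CTTTGA, the core bound by the TCF and LEF partners of beta-catenin (TCAAAG on the other strand).
Mycn: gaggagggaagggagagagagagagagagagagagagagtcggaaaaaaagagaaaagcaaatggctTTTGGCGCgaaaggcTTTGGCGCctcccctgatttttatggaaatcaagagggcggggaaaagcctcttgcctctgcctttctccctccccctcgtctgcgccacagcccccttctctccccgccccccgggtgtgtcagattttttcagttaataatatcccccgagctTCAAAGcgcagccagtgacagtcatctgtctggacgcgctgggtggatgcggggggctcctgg
The window held 2 copies of the E2F motif, which 0.514% of 32851 promoter windows contain on either strand. It held 1 copy of the TCF/LEF core, which 16% of windows contain, and no CACGTG E-box, which 7.15% contain. The window of Mycl, at chr4:122995681-122995980 on the plus strand, is printed for comparison and held none of the 3 motifs.
Mycl: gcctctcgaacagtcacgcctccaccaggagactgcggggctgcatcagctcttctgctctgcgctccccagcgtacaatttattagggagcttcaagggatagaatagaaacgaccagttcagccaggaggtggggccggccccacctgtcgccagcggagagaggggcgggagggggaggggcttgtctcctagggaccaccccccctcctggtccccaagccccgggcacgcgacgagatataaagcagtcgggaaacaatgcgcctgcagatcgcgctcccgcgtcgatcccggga
These matches describe letters and not binding. The table also held 2 windows of Ccnd3, with none of the motifs. Myc, Ccnd1 and Ccnd2 are named only.

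The split of Mycn followed the K5Cre element of the label, also among the glands. All 30 arrays whose label names K5Cre, including 3 glands, had 7.01 to 10.77 on the brightest probe set, and the 9 arrays without it had 6.2 to 6.85. Of the 18194 genes, Mycn was the only one for which every K5Cre-labelled array lay above every other array (0.0055%), and no gene showed the opposite. In a limma fit of K5Cre-labelled against other arrays, with gland or not as a term and the animal as block, Mycn was higher by 1.55 (SE 0.28, adjusted p = 0.00455), the 12th smallest p of all genes, where 7.09% of genes were called. This comparison was chosen after the values were seen. Without the masses and ventral tumours, which leaves 3 animals without K5Cre in the label, the difference was 1.39 with an adjusted p of 0.551, and 15 genes were called in all. The 5 arrays of masses and ventral tumours are also the only ones with C57 in their sample titles. Strain is otherwise not given in the labels, so for these arrays strain and origin cannot be told apart from the K5Cre label. The 3 triple Bcat breast arrays (6.21 to 6.85) and the triple Bcat gland (6.33) have no C57 in their titles. The part of strain or origin in the split was not tested.

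The other Mycn probe sets did not share this split. On the second probe set the K5Cre-labelled arrays ran over 4.22 to 10.66 and the others over 4.89 to 8.93, with a fitted difference of 0.09 (SE 0.70, adjusted p = 0.953). On the third, which is dimmer, the difference was 0.28 (SE 0.24, adjusted p = 0.473). Over the 39 arrays the brightest probe set correlated at 0.20 with the second probe set and at 0.52 with the third, while the second and the third correlated at 0.74 with each other. Which part of the transcript each probe set reads is not given in the files used here.

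**Figure D2:**
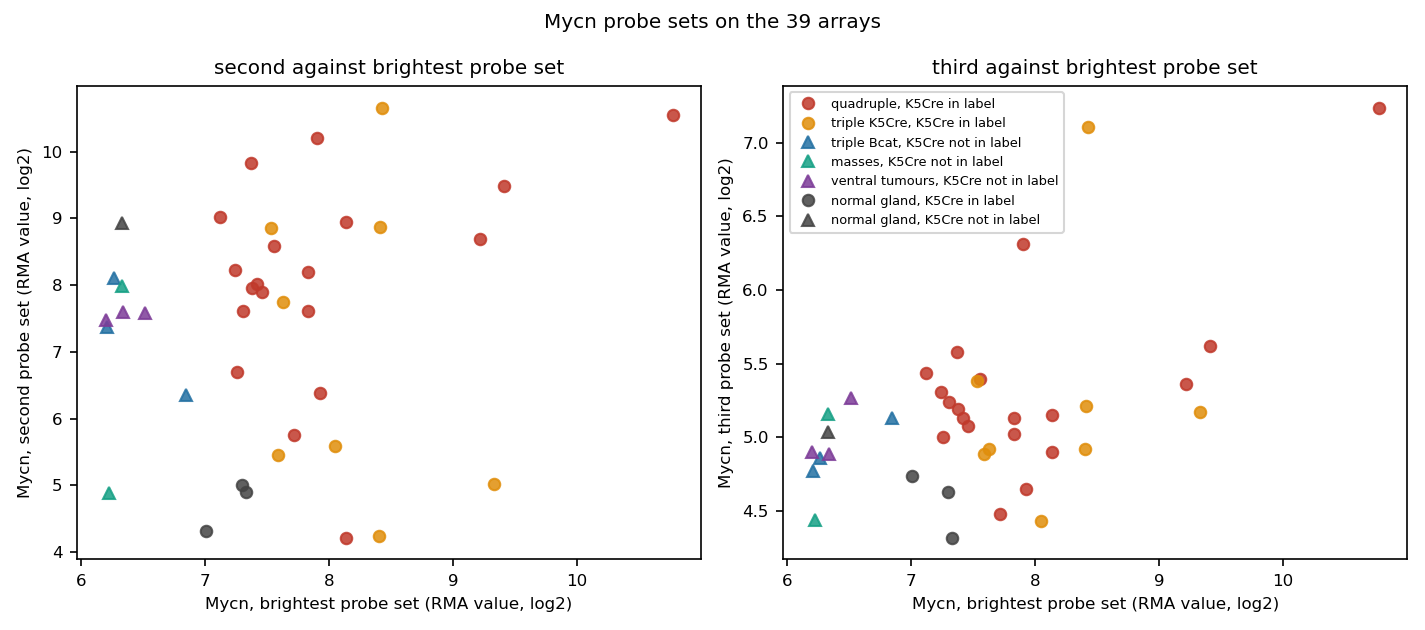
Values of the 3 Mycn probe sets on the 39 arrays (RMA, log2), the brightest on the x axis against the second (left) and the third (right); circles are arrays with K5Cre in the label, triangles those without. The triangles lie at 6.85 or lower on the x axis and the circles at 7.01 or higher. On the left y axis triangles run over 4.89 to 8.93 and circles over 4.22 to 10.66. On the right y axis triangles run over 4.44 to 5.27 and circles over 4.32 to 7.24.

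A few arrays were high for Mycn on some of its probe sets. Quadruple array 14 (animal Q535) had 10.77 on the brightest probe set, 3.06 units and 5.91 scaled median absolute deviations (MADs) above the group median. It was also highest of the quadruple arrays on the second probe set (10.55) and on the third probe set (7.24). Both arrays of animal Q2154 (quadruple 18 and 19) were high on the brightest probe set, at 9.22 and 9.41. Triple K5Cre array 6 had 9.33 on the brightest probe set but 5.02 on the second probe set and 5.17 on the third probe set, so its probe sets disagree. Triple K5Cre array 5 (T817) showed the reverse order, with 8.43 on the brightest probe set, 10.66 on the second probe set and 7.11 on the third probe set.

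Against normal gland, no member passed the threshold in quadruple breast, where 15.4% of all genes did (3 members passed with array weights and 1 with all probe sets of a gene averaged). Mycn differed by 0.92 (SE 0.39, adjusted p = 0.112) and had an unadjusted p under 0.05, the only 1 of 6 members. Ccnd1 differed by 0.62 (SE 0.32, adjusted p = 0.206), Ccnd3 by -0.24 (SE 0.20, 0.481) and Myc by 0.16 (SE 0.22, 0.707) in the same limma fit. Mycl (-0.28, SE 0.52) and Ccnd2 (0.13, SE 0.62) had the widest errors. The median difference of all genes was 0.01.

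In triple K5Cre breast against normal gland, again 0 of 6 members were called by limma, while 17.2% of all genes were. This count was 3 without the quadruple array lowest in Epcam (array 8), 1 on animal means, 2 with the 2 groups fitted alone, 2 without the third of genes lowest in mean, 3 with array weights and 1 with all probe sets of a gene averaged. Mycn (1.10, SE 0.40, adjusted p = 0.0557) and Ccnd1 (0.89, SE 0.33, adjusted p = 0.0571) missed the adjusted threshold of 0.05 narrowly. With Ccnd3 (-0.42, SE 0.21, adjusted p = 0.169), 3 members had an unadjusted p under 0.05. Myc differed by 0.36 (SE 0.23, adjusted p = 0.306), Mycl by 0.04 (SE 0.54) and Ccnd2 by 0.03 (SE 0.64).

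**Figure D3:**
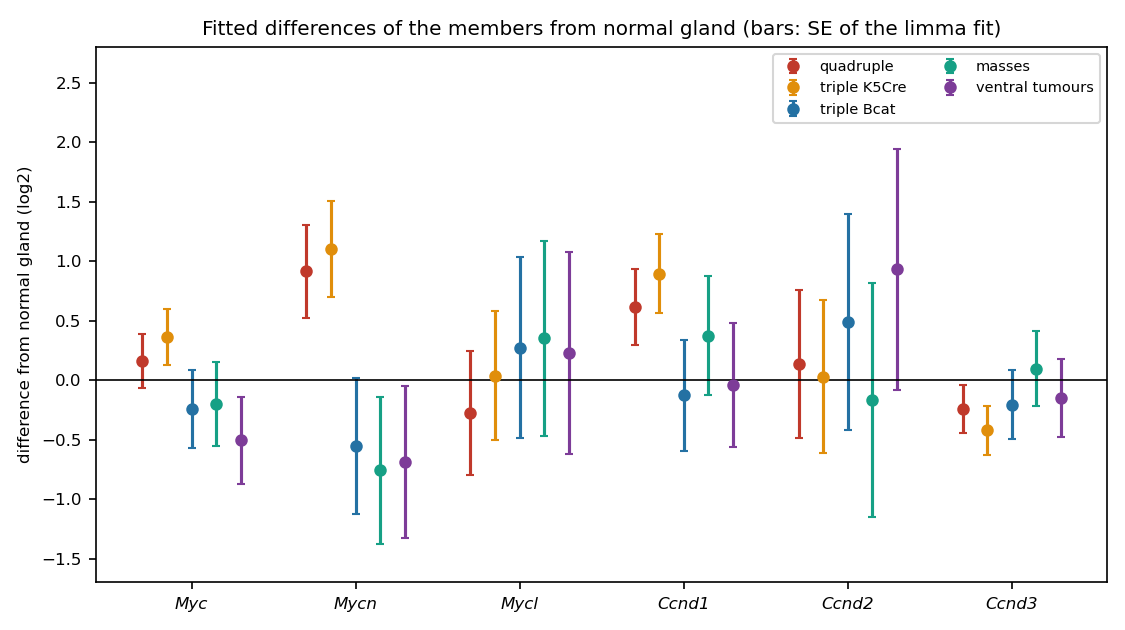
Fitted log2 differences of each member from normal gland in the 5 other groups, with the SE of the limma fit. Mycn and Ccnd1 lie at 0.62 to 1.10 in the quadruple and triple K5Cre groups, none of the 30 differences passed the adjusted threshold, and all 5 groups share the same 4 glands.

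The smaller groups gave no call either. In triple Bcat breast against gland 7.12% of all genes were called and 0 of 6 members, in the masses 7.28% and 0, and in the ventral tumours 4.03% and 0, with 0 members at an unadjusted p under 0.05 in each. Mycn differed from gland by -0.56 (SE 0.57), -0.76 (SE 0.615) and -0.69 (SE 0.64) in triple Bcat breast, masses and ventral tumours. These differences run against the quadruple and triple K5Cre ones, and on the second probe set they turn to 1.35, 0.60 and 1.72. Quadruple against triple K5Cre breast, which differ in the label by Bcat, gave 0% of all genes called by limma (811 at an unadjusted p under 0.05) and 0 of 6 members. There Mycn differed by -0.18 (SE 0.31) and Ccnd1 by -0.28 (SE 0.25). Quadruple against triple Bcat breast, which differ in the label by K5Cre, gave 0.033% of all genes and 0 members. Mycn differed there by 1.47 (SE 0.48, unadjusted p = 0.00442, adjusted p = 0.583) and Ccnd1 by 0.74 (SE 0.40, adjusted p = 0.603).

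Ccnd1, the D-type cyclin with a role in alveolar growth, was bright in every group. Its lowest, median and highest values were 10.38, 11.55 and 12.55 in quadruple breast and 11.05, 12.08 and 12.25 in triple K5Cre breast. Triple Bcat breast had 10.47, 11.25 and 11.01, the masses 11.15 and 11.59, and the ventral tumours 10.46, 10.99 and 11.4. The glands had 11.05, 10.25, 11.6 and 10.99. Of the 8 triple K5Cre arrays, 7 lay above all glands, and the eighth, array 7 with its high muscle mean, had 11.05.

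The Ccnd1 call depended on the probe set. Its 3 probe sets correlated at 0.92 to 0.97 over the 39 arrays. On the third probe set Ccnd1 was higher than in gland by 1.44 in triple K5Cre breast (SE 0.39, adjusted p = 0.00908) and by 1.11 in quadruple breast (SE 0.38, adjusted p = 0.0423). On the second probe set triple K5Cre breast passed (0.91, SE 0.32, adjusted p = 0.0475) and quadruple breast did not (0.50, SE 0.31, adjusted p = 0.315). With the adipocyte and muscle means as covariates, the Ccnd1 differences on the brightest probe set were -0.22 in quadruple and -0.04 in triple K5Cre breast, and those of Mycn -0.33 and -0.28. Under these covariates 83 genes were called in quadruple breast against gland. The adipocyte mean was 11.4 to 11.82 in the glands, with medians of 6.78 in quadruple and 6.42 in triple K5Cre breast. It thus largely follows the contrast with gland, and this fit can hardly separate makeup from that contrast. The part of tissue makeup in the differences from gland was not tested.

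Myc, the founding member of its family, has a single probe set. Its lowest, median and highest values were 8.35, 9.15 and 10.06 in quadruple breast and 8.6, 9.58 and 9.88 in triple K5Cre breast. Triple Bcat breast had 8.52, 9.24 and 8.92, the masses 9.11 and 8.68, and the ventral tumours 8.75, 8.54 and 8.49. The glands had 8.95, 9.06, 8.92 and 9.42. All 3 ventral tumour arrays lay under all glands, but they come from 1 animal and their difference of -0.50 (SE 0.36, adjusted p = 0.505) was not called.

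On the probe sets used, Ccnd2 spread most of the 6 members, but Mycn on its second probe set, almost as bright as the one used, spread more (SD 1.55 in quadruple and 2.29 in triple K5Cre breast). For Ccnd2 the SD of its quadruple arrays was 1.18, above that of 92.8% of all genes, and the SD of its triple K5Cre arrays was 1.56, above that of 96.7%; the median gene had 0.315 and 0.293. Ccnd2 can replace Ccnd1 in Cdk4 and Cdk6 complexes and is a main D-type cyclin of ovary and of B cells. Its lowest, median and highest values were 7.54, 11.68 and 12.58 in quadruple breast and 8.76, 11.76 and 12.63 in triple K5Cre breast. Triple Bcat breast had 11.52, 11.69 and 11.61, the masses 10.27 and 11.62, and the ventral tumours 12.62, 11.73 and 11.77. The glands had 11.86, 11.36, 11.12 and 10.91.

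The low end of Ccnd2 was held by a few arrays. Quadruple array 3 (7.54) and triple K5Cre arrays 1 (8.76) and 6 (9.08) were lowest, and together with triple K5Cre array 7 (10.09) and quadruple array 16 (10.15) lay under every array of the triple Bcat, masses, ventral tumour and gland groups, whose lowest value was 10.27. The 7 probe sets of Ccnd2 correlated at 0.949 to 0.995 over the 39 arrays, so the low values do not belong to 1 probe set. On the array of animal Q2164 (quadruple 3) all 7 had their quadruple minimum.

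Mycl, found first in small cell lung cancer and expressed in dendritic cells, had a few low arrays. Its lowest, median and highest values were 4.61, 7.3 and 8.59 in quadruple breast and 5.35, 7.8 and 8.32 in triple K5Cre breast. Triple Bcat breast had 7.39, 7.94 and 7.81, the masses 7.36 and 8.16, and the ventral tumours 7.94, 7.27 and 7.7. The glands had 7.85, 5.29, 8.49 and 7.24. The lowest arrays of their groups were quadruple 3 (4.61), triple K5Cre 2 (5.35) and normal gland 2 (5.29), which come from different animals. Animal T627 had 5.35 in its breast and 8.49 in its gland.

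Ccnd3, the cyclin of lymphocytes and of terminally differentiating cells, varied least on the probe sets used. Its lowest, median and highest values were 7.86, 8.33 and 9.74 in quadruple breast and 7.72, 8.23 and 8.89 in triple K5Cre breast. Triple Bcat breast had 8.49, 8.27 and 8.46, the masses 8.68 and 8.75, and the ventral tumours 8.07, 8.62 and 8.73. The glands had 8.39, 8.43, 8.95 and 8.77. The highest value, 9.74 on quadruple array 8, stood 1.41 above the group median, and that array also had a T cell marker mean of 6.77, against a quadruple range of 4.29 to 7.37. Its Epcam value was the lowest of the group (8.13, against 10.88 for the next array). The part of lymphocytes and of epithelial content in the Ccnd3 value was not tested. The probe sets of Ccnd3 disagree. Over the 39 arrays the one used correlated at -0.005 with the second and at 0.478 with the third. These other probe sets are dimmer, with means of 5.82 and 5.31. On the second the SD of the quadruple arrays was 0.704, against 0.393 on the one used.

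Ordered by group means, the ranges of neighbouring groups overlapped for all members except at the top of Ccnd2, where the ventral tumours (12.04 ± 0.50, SD, n = 3 arrays of 1 animal) lay above triple Bcat breast (11.61 ± 0.09, n = 3 arrays of 2 animals). On 4 of the 6 other Ccnd2 probe sets these ranges overlapped. Triple K5Cre breast had the highest mean for Myc (9.47 ± 0.41), Mycn (8.17 ± 0.61) and Ccnd1 (11.92 ± 0.41), and the lowest for Ccnd3 (8.22 ± 0.35, SD, n = 8 each). For Mycn this order holds on the brightest probe set, since quadruple breast was highest on the other 2, and on the second triple K5Cre breast (7.06) came after quadruple breast, ventral tumours and triple Bcat breast. Quadruple breast followed it for Myc (9.22 ± 0.49), Mycn (7.95 ± 0.92) and Ccnd1 (11.58 ± 0.68, SD, n = 19 arrays each).

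Single arrays were called far from their group where they lay at least 1 unit and over 3.5 scaled MADs from the group median. In quadruple breast 4 of 6 members had such an array. Mycn (array 14) and Ccnd3 (array 8) were high, where 11.1% of all genes had a high array, and Mycl and Ccnd2 (both array 3) were low, where 4.46% had a low one. In triple K5Cre breast 2 members had a low array, Mycl (array 2) and Ccnd1 (array 7), where 2.19% of all genes did, and 0 had a high one, where 6.51% did. This holds for the probe sets used. On others triple K5Cre arrays were high, array 5 for Mycn on the third (7.11) and array 2 for Ccnd3 on the second (6.75). On the second Mycn probe set quadruple array 3 was low as well, at 4.22, which is 3.98 under the group median. Array 3 thus held the lowest quadruple value of Ccnd2, Mycl and Mycn on the second probe set, beside a Wnt feedback mean of 5.29, the lowest of that group too. It was also the lowest quadruple array for Krt14 (7.76), Krt5 (9.44) and Vim (9.02), with Krt8 at 13.2, and the part of epithelial makeup in its low values was not tested.

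The 3 arrays of animal Q648 (quadruple 8, 9 and 10) differed widely from each other. Ccnd1 had 12.18, 10.39 and 10.47 on them, Ccnd2 12.53, 10.45 and 11.7, Ccnd3 9.74, 8.72 and 8.24, Mycl 5.84, 5.97 and 8.59, and Myc 8.35, 9.12 and 9.02. Adipocyte means were 5.73, 10.79 and 7.14, and squamous epithelium means 8.01, 6.19 and 12.47. The 2 arrays of Q190 differed by 0.22 or less for each member.

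Whether members moved with proliferation or with Wnt signalling was asked over the 15 quadruple animals, with arrays of an animal averaged. Among 27 relations (15 pairs of members, and each member with the means of a mitotic list and of a Wnt feedback list), 6 passed a Benjamini-Hochberg threshold by Pearson's r and a permutation test. The mitotic list holds 14 genes of mitosis and proliferation. The Wnt feedback list holds 9 measured genes that beta-catenin switches on in many tissues, among them Axin2, Notum, Sp5 and Lgr5. The labels give no batch within which to repeat these relations. The two-sided tests are over animals, and the lists share no gene with the members. The share of all genes that correlate as strongly with either list over these animals was not counted. The relations below therefore describe the members and do not set them apart from other genes.

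Ccnd2 and Mycl, on the probe sets used, correlated with the Wnt feedback list. For Ccnd2 Pearson's r was 0.83 (permutation p = 3e-05, adjusted 0.00081) and Spearman's rho 0.86 (adjusted p = 0.00189, n = 15 animals); without the 2 animals farthest from the median of Ccnd2, r was 0.73. For Mycl r was 0.75 (permutation adjusted p = 0.00445) and rho 0.72 (adjusted p = 0.0206), and 0.58 without the 2 farthest. Over the 19 arrays the Mycl relation lost its call (r = 0.53, permutation adjusted p = 0.0882), and without the arrays low in Xist its rho had an adjusted p of 0.0569 (permutation, n = 14 animals). Ccnd2 and Mycl also correlated with each other (r = 0.84, permutation adjusted p = 0.0143). That relation rests on the 2 animals farthest from the median of Mycl, since r was 0.34 without them and rho was 0.47 (adjusted p = 0.24).

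Mycn differed by probe set here as well. On the brightest probe set its r with the Wnt feedback list was 0.30 (permutation adjusted p = 0.516), and on the second probe set r was 0.90 (permutation p = 3e-05) and rho 0.89 (p = 4e-05), with 0.80 without the 2 farthest animals. Ccnd2 correlated with the second probe set at r = 0.89 (permutation p = 1e-05, the smallest that 100000 resamples can give). These values were added after the data were seen and are not adjusted. Removing the adipocyte and muscle means from both sides left r at 0.92 for Mycn on the second probe set, 0.83 for Ccnd2 and 0.76 for Mycl with the Wnt feedback list. Basal and luminal makeup was not removed. In animals Q2164, Q651 and Q545, lowest in the list mean (5.29, 5.52 and 5.74), the basal keratin Krt14 was 7.76, 10.43 and 13.98. Krt8, a luminal keratin, was 13.2, 13.8 and 11.8 there. The part of epithelial makeup in these relations was not tested.

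The triple K5Cre animals fell into 2 sets on the Wnt feedback list, so no r is given for that list over the 8. Arrays 1, 2, 6 and 7 had list means of 5.56, 4.92, 5 and 5.55, and arrays 3, 4, 5 and 8 had 7.29, 7.71, 8.97 and 7.09. Myc was 9.58, 9.27, 8.6 and 9.33 on the arrays with low list means and 9.59, 9.79, 9.88 and 9.71 on those with high ones, which just do not overlap. Mycn on the second probe set was 5.59, 4.24, 5.02 and 5.45 on the arrays with low list means and 8.86, 8.87, 10.66 and 7.75 on those with high ones, without overlap. Ccnd2 was 8.76, 12.45, 9.08 and 10.09 on the arrays with low list means and 11.98, 12.63, 12.25 and 11.54 on the others, so array 2 (T627) had high Ccnd2 at the lowest list mean and the sets overlap. The share of all genes that do not overlap between these sets was not counted. The lack of overlap for Myc and Mycn is therefore a description and not a result about these genes. The same sets differ in epithelial makeup. Krt14, a basal keratin, was 9.91, 7.37, 10.33 and 9.61 on the arrays with low list means and 13.03, 12.81, 12.7 and 13.4 on the others. Krt8, a luminal keratin, was 13.28, 13.28, 14.25 and 13.35 on the arrays with low list means and 10.84, 11.43, 11.14 and 11.07 on the others. Krt5, Krt18 and Epcam did not overlap between the sets either. The means of the luminal list were 10.93 to 12.15 and 9.25 to 9.35, those of the squamous list 4.68 to 7.87 and 10.41 to 11.3, and those of the basal list 6.49 to 10.14 and 9.22 to 9.91. The part of epithelial makeup in these values was not tested. Among the glands the same order held: the triple Bcat gland had a list mean of 8.42 and 8.93 for Mycn on the second probe set, and the 3 others had 6.13 to 6.35 and 4.32 to 5.

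Myc, Ccnd1 and Ccnd3 correlated with the mitotic list in quadruple animals, where the share of all genes that do so was not counted. Myc correlated positively with it (r = 0.78, permutation adjusted p = 0.00738; rho = 0.76, adjusted p = 0.0206; r = 0.81 without the 2 farthest animals), as did Ccnd1 (r = 0.73, permutation adjusted p = 0.0143; rho = 0.73; r = 0.83). Ccnd3, on the probe set used, ran the opposite way (r = -0.67, permutation adjusted p = 0.0274, rho = -0.72, and r = -0.57 without the 2 farthest). With the adipocyte and muscle means removed from both sides these were 0.79, 0.68 and -0.64. Over the 19 arrays, with those of Q648 apart, the relations of Myc (r = 0.53) and Ccnd3 (r = -0.29) no longer passed and that of Ccnd1 did (r = 0.75). Over the 8 triple K5Cre animals 0 of 27 relations passed by Pearson's r in an exact permutation test. By Spearman's rho 1 passed, Myc with the Wnt feedback list (exact permutation, adjusted p = 0.0308), which pools the 2 sets of animals described above. The r of Myc, Ccnd1 and Ccnd3 with the mitotic list was -0.03, 0.30 and -0.43. Whether the relations differ between the groups was not tested.

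**Figure D4:**
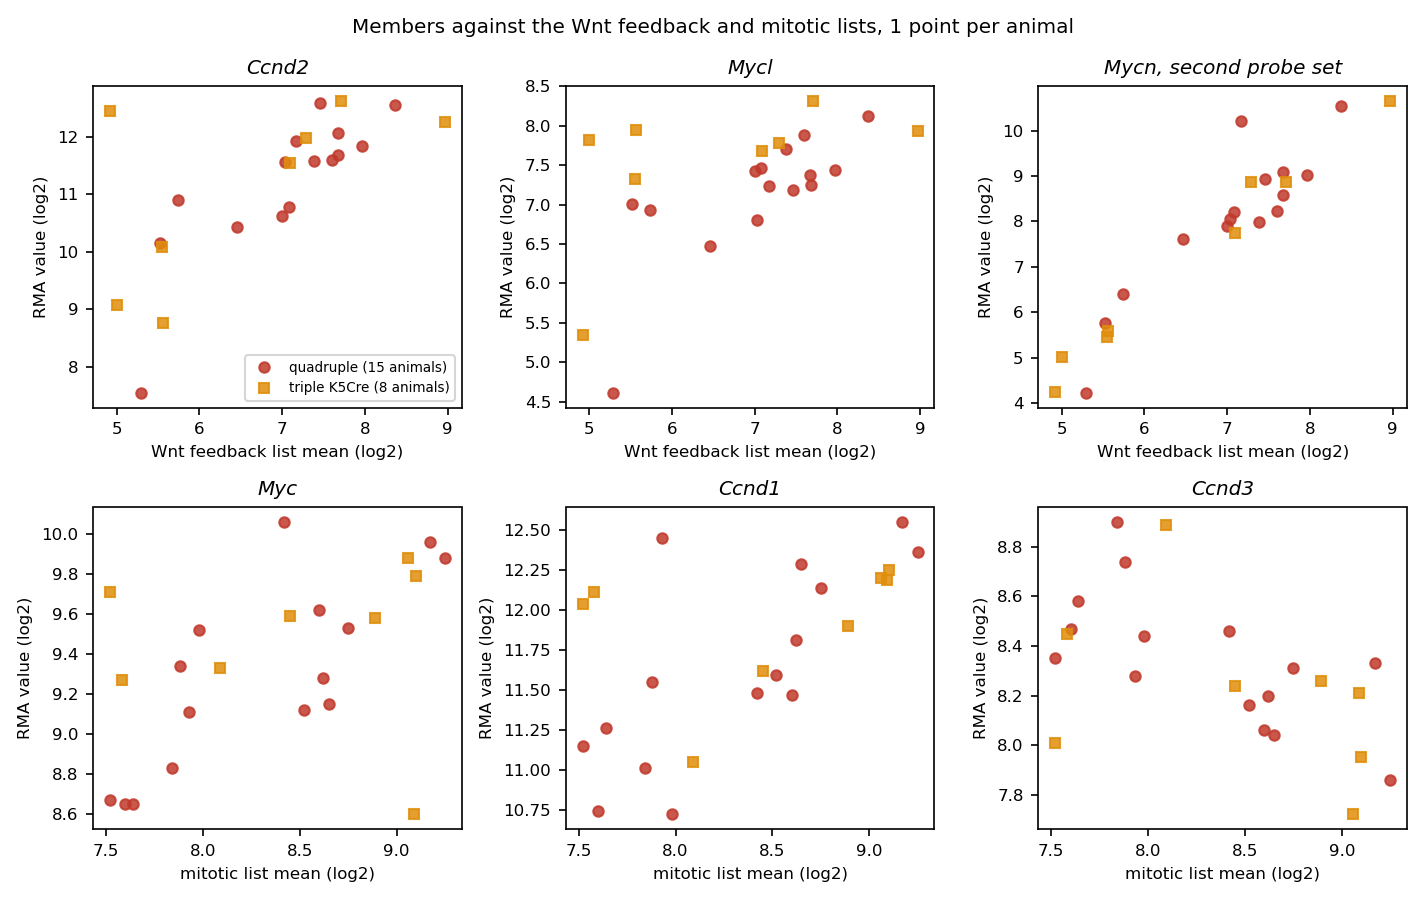
Ccnd2, Mycl and Mycn (top) or Myc, Ccnd1 and Ccnd3 (bottom), as RMA values (log2), against the mean of the Wnt feedback list (top) or mitotic list (bottom), 1 point per animal; circles are 15 quadruple animals and squares 8 triple K5Cre animals. Mycn on its second probe set and Ccnd2 rise along the Wnt feedback list, with 1 triple K5Cre animal at high Ccnd2 and low list mean, and Ccnd3 falls along the mitotic list.

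The genes most like each member were sought over the 23 quadruple and triple K5Cre animals after removing the group means, by Pearson's r. They are a description, chosen from 18194 genes, with provisional symbols (clone and predicted-gene names) passed over. Myc was most like Wdr48 (0.93), Eef2 (0.87) and Tada2a (0.87). Mycl was most like Hoxb3 (0.88), Evc2 (0.88) and Clip4 (0.87), and Ccnd2 most like Phlda3 (0.90), Ccng2 (0.87) and Map9 (0.87). Ccnd1 was most like Hnrnpa0 (0.86), Dnmt3a (0.85) and Api5 (0.85), and Ccnd3 most like Ifng (0.84), Slc25a22 (0.82) and Ehd4 (0.82). For Mycn on the brightest probe set the genes were Timm17a (0.79), Nif3l1 (0.78) and Fbxo28 (0.78), and on the second probe set they were Dlx3 (0.97), Rasgef1b (0.94) and Kcnmb4 (0.93), with no gene in common.

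Of 18 measured E2F targets and later cyclins, 17 rose in quadruple and 18 in triple K5Cre breast against gland, with median differences of 1.27 and 1.37 where the median of all genes was 0.01 and 0.02. Of all 18194 genes, 1037 and 1353 were called higher and 1757 and 1781 lower in these comparisons, and the counts of the lists below stand beside these. Rrm2, which helps to make deoxynucleotides, rose by 2.40 (SE 0.40, adjusted p = 5.67e-05) and 2.34, and Ccna2, the cyclin of S phase, rose by 1.84 in quadruple breast. In triple Bcat breast and in the masses 2 of 18 rose, and in the ventral tumours 1, with median differences of 1.00, 1.00 and 0.60. Mki67, a proliferation marker, rose by 2.08 (SE 0.33, adjusted p = 2.76e-05) and 2.01 (SE 0.34, adjusted p = 5.84e-05). All 14 mitotic genes rose in quadruple and in triple K5Cre breast, 5 in triple Bcat breast and 0 in the masses and ventral tumours. Their median differences were 1.89, 2.09, 1.58, 1.06 and 0.80 in the same order, with 2 or 3 arrays in each of the smaller groups. With the adipocyte and muscle covariates 0 genes of either list were called, with medians of 0.43 and 0.52 for the E2F targets.

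**Figure D5:**
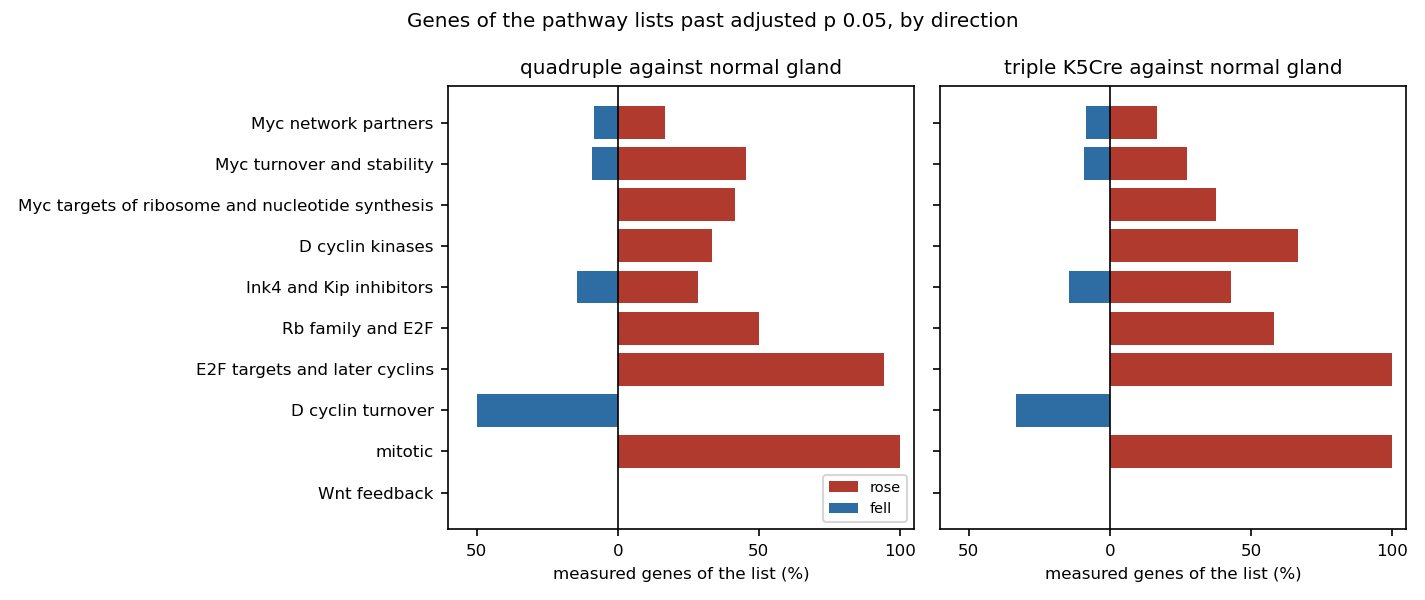
Share of the measured genes of each pathway list that rose (right) or fell (left) at an adjusted p under 0.05 in quadruple (left panel) and triple K5Cre breast (right panel) against normal gland, in percent. The E2F target and mitotic lists rose nearly throughout, the Wnt feedback list had no call, and D cyclin turnover genes had calls in the falling direction alone.

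Partners in the D cyclin pathway moved in part, where 15.4% of all genes were called in quadruple and 17.2% in triple K5Cre breast. Of 3 kinases listed (Cdk4, Cdk6 and Cdk2), Cdk2 alone was called by limma in quadruple breast (0.59, SE 0.16, adjusted p = 0.00765). In triple K5Cre breast Cdk2 rose (0.60, SE 0.16, limma adjusted p = 0.00888). Cdk4, the main kinase of D-type cyclins, rose there too (0.97, SE 0.28, limma adjusted p = 0.0129), and Cdk6 was not called. Of 7 Ink4 and Kip inhibitors, 2 rose and 1 fell in quadruple breast, and 3 rose and 1 fell in triple K5Cre breast. Cdkn2a, which encodes an Ink4 inhibitor of Cdk4 and Cdk6, rose by 2.31 (SE 0.68) and 3.16 (SE 0.71), while Cdkn2c, another Ink4 inhibitor, fell (-2.18, SE 0.31, and -2.19, SE 0.32). Of 12 genes of the Rb and E2F families, 6 and 7 rose, with E2f8, a repressor of E2F targets, at 1.88 and 1.74. Of 6 genes of D cyclin turnover, 3 and 2 fell, among them Fbxo4 (-1.09 and -0.81), an F-box protein. The largest falls of this list were Cryab in quadruple breast (-1.38) and Fbxo31 in triple K5Cre breast (-0.96).

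On the Myc side, 10 of 24 targets of ribosome and nucleotide synthesis rose in quadruple breast and 9 in triple K5Cre breast, with medians of 0.37 and 0.40 and none falling, where 1037 and 1353 of all 18194 genes rose. Nop56, a core protein of small nucleolar particles, rose by 0.78 (SE 0.21, adjusted p = 0.00748) and 0.81 (SE 0.21, adjusted p = 0.00652). In triple Bcat breast and in the ventral tumours 0 of 24 rose, and in the masses 2. Among 11 genes of Myc turnover, 5 rose and 1 fell in quadruple breast and 3 rose and 1 fell in triple K5Cre breast. Skp2, an F-box protein that targets Myc and Kip inhibitors, rose by 1.98 (SE 0.43) and 2.10 (SE 0.44), and Ppp2r5a, a phosphatase subunit, fell (-1.71, SE 0.21, and -1.90, SE 0.22). Of 12 Myc network partners, Mxd1 and Mxd3, which compete with Myc for Max, rose, and Mlxipl, a glucose-sensing factor abundant in fat, fell (-2.84, SE 0.37, and -2.94, SE 0.38). With the covariates, 1 gene of the Myc turnover list and 0 of the other Myc and D cyclin lists were called.

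No gene of the Wnt feedback list was called by limma in any of the 7 comparisons, with median differences from gland of 0.32 in quadruple, -0.06 in triple K5Cre and 0.71 in triple Bcat breast. Axin2, its best known gene, ran from 4.99 to 9.49 in quadruple and from 5.29 to 9.48 in triple K5Cre breast, against 6.88 to 9.07 in the glands. Ctnnb1, the gene of beta-catenin, lay between 12.37 and 13.39 in these groups. Quadruple against triple K5Cre and against triple Bcat breast called no gene of the 10 pathway lists.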

How the data were processed

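The authors deposited log2 expression values of 39 Affymetrix mouse arrays (45101 probe sets), made by RMA per the submitters' processing notes, with total RNA extracted and amplified to labelled cRNA per the labels' protocols. Values ran from 1.65 to 14.61 with array medians of 5.1 to 5.27. Precision is limited by how many arrays a group has. Platform annotation gave 34958 probe sets 1 gene, 932 several and 9211 none, and 204 with a single symbol that matched no current gene kept it. Each of 18194 genes was represented by its probe set with the highest mean, passing over _x_at sets where another existed (100 genes had no other). Groups followed the labels.

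limma 3.58.1 (R 4.3.3) fitted 6 groups with the animal as a random block (correlation 0.329), moderated variances with a mean trend, and adjusted p-values by Benjamini-Hochberg over all genes at 0.05. Nothing says that arrays of different animals were processed independently, so p-values measure only the spread between these samples. Animals T627 and T635 gave breast and gland, which pairs those samples. Correlations over animals used permutation tests (100000 resamples, or exact for 8 animals) in scipy 1.17.1. The fits and the correlation test were tested on simulated data with known changes. The genes named were the members, Ctnnb1, Krt5, Mki67 and Axin2, the 3 genes most like each member, and up to 2 rises and 2 falls with the largest log2 difference among called genes of each list (the 2 smallest p where none passed). Members and lists were chosen with earlier results of these data known, so no list is independent support. The comparison by K5Cre label, the second Mycn probe set in correlations and the removal of adipocyte and muscle means were chosen after seeing the data. Alternatives included normalization, array weights, other probe sets, filters, covariates and leaving out arrays.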

Additional observations from a re-analysis of the deposited data

Results flagged for a closer look

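The 6 members in triple K5Cre breast (8 arrays) and in normal gland (4 arrays) gave 12 sets of values, which were examined for a single array set apart by its gap to the next (Dixon's test). On the probe set used, Mycl of triple K5Cre array 2 (animal T627) stood apart, at 5.35. The gap to the next array was 0.665 of the range of the group. Chance marks about 1 in 20 groups in this way. The same array is 1 of the 3 with low Xist and has the lowest Wnt feedback mean of its group (4.92), and the part of either in the value was not tested. The gland of the same animal was also low in Xist (5.64), with Mycl at 8.49.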

How the results depend on the processing

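Leaving out each array of the small groups in turn changed no count of members called (0 in the contrasts with such arrays, 1 by the F test, F of Mycn 5.22 to 6.19). It moved Ccnd2 against gland over -0.02 to 0.38 in quadruple and -0.13 to 0.25 in triple K5Cre breast, and Mycl over -0.95 to 0.35 and -0.58 to 0.72. Array weights called 3 members in quadruple and 3 in triple K5Cre breast (Ccnd1, Ccnd3 and Mycn in each), 2 in triple Bcat breast, 1 in the ventral tumours, 1 in quadruple against triple Bcat breast and 4 by the F test, while calling 6749 of all genes in quadruple breast against gland in place of 2794. Averaging all probe sets of a gene called 1 member in quadruple breast (Mycn), 1 in triple K5Cre breast (Ccnd1) and 0 by the F test. In triple K5Cre breast against gland, animal means called 1 member, fitting only the 2 groups called 2, leaving out the third of genes lowest in mean called 2, and leaving out the quadruple array lowest in Epcam called 3. Over arrays, 2 relations passed in place of 6, and at 5 scaled MADs 1 triple K5Cre member had a far array.

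With adipocyte and muscle covariates the differences from gland in quadruple breast were -0.22 (Ccnd1), -0.9 (Ccnd2), 0.04 (Ccnd3) and -0.33 (Mycn), and in triple K5Cre breast -0.04 (Ccnd1), -1.09 (Ccnd2), -0.35 (Mycl) and -0.28 (Mycn). Ccnd2 in quadruple breast was -0.02 without the animal block, -0.13 on animal means and -0.07 with the 2 groups alone. In triple K5Cre breast it was -0.21, -0.21 on animal means, -0.12 after cyclic loess, -0.28 without the arrays low in Xist and -0.01 on 1 of its other probe sets. Ccnd3 was 0.06 and 0.06 on its other probe sets in quadruple and 0.02 and 0.01 in triple K5Cre breast. Mycl was 0.36 without the arrays low in Xist and 0.06 on its second probe set in quadruple breast, and in triple K5Cre breast -0.1 without the array lowest in Epcam and -0.04 on the third. Mycn against gland was 1.35, 0.6 and 1.72 on its second probe set and 0.25, 0.11 and 0.33 on the third in triple Bcat breast, masses and ventral tumours. With all probe sets averaged it was 0.35 in triple Bcat breast and 0.45 in ventral tumours. Quadruple against triple K5Cre breast it was 0.96, 0.07 and, averaged, 0.28. The cause of these changes was not tested.

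With the replicate block, the 2 animals with breast and gland gave 0 genes and 0 members called, with Mycl at -1.3, Mycn at 0.65, Ccnd1 at 0.57 and Ccnd2 at 1.20. Genes called ranged over 83 to 6749 in quadruple breast, 0 to 6366 in triple K5Cre breast, 17 to 6581 in triple Bcat breast, 8 to 4226 in the masses and 7 to 5717 in the ventral tumours against gland, 0 to 1 and 0 to 2557 in quadruple against triple K5Cre and triple Bcat breast, and 135 to 10386 by the F test. The 4 glands and the small groups limit every comparison made with them.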
